A study of Homo sapiens with 59 samples.

Results

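Coptidis Rhizoma, the dried rhizome of goldthread (Coptis) species and a source of the alkaloid berberine and its relatives, was given to A549, an established line of human lung carcinoma cells, and RNA was measured in bulk. The 2 libraries of its high dose, 110 µg/mL of an ethanol extract for 24 h (replicates 2 and 3), were compared with the 3 libraries of cells that had vehicle (DMSO) for 24 h, 5 of the 59 libraries of the series. Members are all genes that could be tested, 18568 in number. Replicate 1 of the extract was not analysed here. The DMSO of the vehicle is 0.1% in the labels of the libraries but 2% in the text of the series, and the labels name no other treatment of the cells. The 2 high-dose libraries held 23160059 and 24050787 expected counts and the vehicle libraries 25251059, 27975489 and 19320259. Further libraries of the same extract, 2 at 22 and 2 at 4.4 µg/mL, and 2 of Zizyphi Fructus, the jujube fruit, at 500 µg/mL, served as additional comparisons, all of them after 24 h. All 59 libraries share the same batch name in their titles. Library codes start with 11 for both extracts and with D1 for vehicle, and the labels do not say what this marks, so code and treatment cannot be told apart in a comparison with vehicle; the contrast between the extracts stays within code 11. Of 15 lung epithelial markers, KRT8, KRT18 and KRT7 were abundant, while the alveolar genes NKX2-1, SFTPB and SFTPC were at or near 0 in all 5 libraries.

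As background, cells under amino acid shortage, mitochondrial stress or misfolded protein slow translation by phosphorylating eIF2 alpha. The transcription factor ATF4 is then made and, with partners of the C/EBP family, switches on genes for amino acid synthesis, transport and tRNA charging. The aryl hydrocarbon receptor (AhR) is a separate sensor that binds many planar aromatic compounds and induces cytochrome P450 enzymes. Sterol genes are driven by SREBP2, which is held in the endoplasmic reticulum when sterols are plentiful. The mitochondrial genome is transcribed from both strands as long precursors that are cut into 2 rRNAs, 13 mRNAs and tRNAs.

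At the high dose 1191 genes were higher (6.41% of those tested) and 1141 lower (6.14%) than in vehicle at an edgeR adjusted p below 0.05. The higher genes had a median log2 fold change of 0.70 and the lower genes of -0.52. More than 2-fold changes numbered 326 upward and 139 downward, and more than 4-fold changes 48 and 28. Both treated libraries lay beyond all 3 vehicle libraries for 1189 of the higher and 1138 of the lower genes. Over all 18568 tested genes, called or not, 5204 lay above and 5486 below vehicle in this way. The median over all genes tested was -0.01. Without high-dose replicate 2 the count of called genes was 1163 and without replicate 3 it was 1176, where the remaining library was assumed to vary like the other groups. The spread of each gene was estimated over all 59 libraries. In another setting 4 libraries of other extracts with a high antisense share were left out, and the count was 5116. These were Citri Unshius Pericarpium high and medium replicate 3 and Cimicifugae Rhizoma medium and low replicate 2. The high-dose libraries were kept, although their antisense share was close to that of Cimicifugae Rhizoma medium replicate 2. The labels do not say that replicates came from separate cultures, so p-values measure only the spread between these libraries. In bulk RNA fewer cells of a type and less RNA per cell cannot be told apart. In the plot of all genes the called points lie on both sides of 0. Some genes that were not called lie farther from 0 than most called genes.

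**Figure D1:**
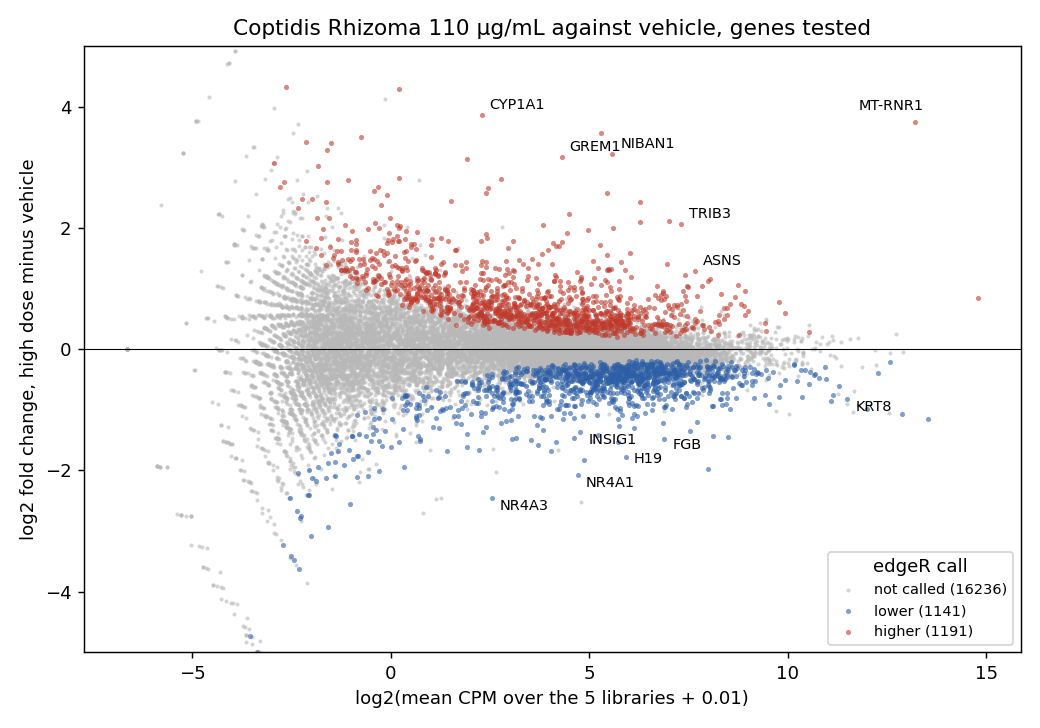
Log2 fold change of the high dose against vehicle (y axis) by mean level, log2(mean CPM over the 5 libraries + 0.01) (x axis), a point per tested gene coloured by its edgeR call. More than 2-fold changes are more frequent upward (326) than downward (139); 39 genes, 4 of them called, lie beyond the plotted range of 5 log2 units either way.

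Of 9 AhR genes tested 5 rose, among them metabolising enzymes and repressors of the receptor. CYP1A1, a cytochrome P450 and the standard AhR target (ENSG00000140465, chr15:74719542-74725610 on GRCh38), was at 10.6 and 11.6 CPM (counts scaled to a common library size) in the high-dose libraries and at 0.9, 0.732 and 0.615 CPM in vehicle. It was higher by 3.86 ± 0.28 on the log2 scale (standard error; edgeR adjusted p = 2.24e-13), and the groups did not overlap. CYP1B1, a second P450 of the pathway, had 234 and 243 CPM against 58.4, 54.7 and 52.8 CPM, a log2 fold change of 2.11 ± 0.11. TIPARP, an ADP-ribosyltransferase that shuts the receptor off, was at 146 and 141 against 35.3, 32.3 and 32.7 CPM (2.10 ± 0.25). AHRR, the AhR repressor, changed by 1.90 ± 0.17, and ALDH3A1, an aldehyde dehydrogenase, by 0.77 ± 0.16. These are the 5 genes that rose, and the list median was 0.77. The other members did not pass the test, among them the receptor gene AHR itself (log2 fold change -0.39 ± 0.32) and the enzyme genes NQO1 (0.11 ± 0.13) and UGT1A6 (-0.63 ± 0.36). All 5 calls were kept when any library was left out. GCGTG, the core of the xenobiotic response element, was sought on both strands from 250 bases before to 50 after the start in the RefSeq promoter table (GRCh38.p14). It stood in 6 of the 7 matched AhR genes, 3 of them called. The share was 36.3% over all promoters and 49.6% over those of tested genes. A match of letters is a description, not a site or a cause. CYP1A1 is shown because it had the highest fold change, with the core in capitals at -57 (chr15:74725529-74725648, minus strand, the 120 bases before the start).
CYP1A1: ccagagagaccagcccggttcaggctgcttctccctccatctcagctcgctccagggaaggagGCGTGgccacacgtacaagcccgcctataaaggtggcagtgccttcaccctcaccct

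Integrated stress response regulators moved up as a group: 16 of 23 tested rose, with a median of 1.17. NIBAN1, a stress-induced protein linked to eIF2 alpha phosphorylation (chr1:184790724-184974550 on GRCh38), was at 104 and 101 CPM against 10.8, 10.5 and 12.0 CPM in vehicle. Its log2 fold change was 3.21 ± 0.21 (edgeR adjusted p = 2.54e-14), the largest of the list. STC2, a secreted glycoprotein, was at 154 and 149 CPM against 30.8, 26.8 and 27.1 CPM (2.42 ± 0.27). TRIB3, a pseudokinase that restrains ATF4 and AKT, was at 291 and 289.6 against 66.3, 69.2 and 72.8 CPM (2.06 ± 0.18). In each of these genes the lowest treated library exceeded the highest vehicle library several-fold. The proapoptotic factor gene DDIT3 (CHOP) had 34.5 and 34.6 CPM against 9.004, 11.7 and 9.94 CPM, a log2 fold change of 1.76 ± 0.24. CHAC1, which degrades glutathione, changed by 2.05 ± 0.31, SESN2, a leucine-sensing brake on mTORC1, by 1.97 ± 0.17, and ADM2, a peptide hormone gene, by 2.57 ± 0.23. PPP1R15A, the phosphatase subunit that reverses eIF2 alpha phosphorylation, rose by 1.31 ± 0.20 and the C/EBP partner CEBPG by 1.04 ± 0.12. The stress cytokine GDF15 changed by 1.18 ± 0.22. In the fit of all 59 libraries ATF4 mRNA itself did not pass the test, at 333 and 332 CPM against 259, 260.2 and 261 CPM (0.36 ± 0.18, edgeR adjusted p = 0.232). Its groups did not overlap, and another setting of the analysis called it higher. The eIF2 alpha kinase genes EIF2AK1, EIF2AK3 and EIF2AK4 had log2 fold changes of -0.16, -0.29 and 0.25, and OMA1, the mitochondrial protease, of -0.26. None of these 4 passed in the fit of all libraries, while other settings called EIF2AK1, EIF2AK3 and EIF2AK4 but not OMA1. DELE1, which relays mitochondrial stress to the kinase encoded by EIF2AK1, passed it at 0.27 ± 0.08, and this call was lost without high-dose replicate 2 or 3, as was that of NUPR1 (1.40 ± 0.38) without replicate 3.

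Enzymes that make serine, one-carbon units, proline and asparagine rose in 13 of 20 cases (median 0.62). ALDH1L2, a mitochondrial folate enzyme, was at 87.3 and 87.4 CPM against 22.1, 22.6 and 20.6 CPM (2.00 ± 0.27), the largest change of the list. PCK2, the mitochondrial phosphoenolpyruvate carboxykinase, had 108 and 109.6 against 37.1, 35.0 and 35.9 CPM (1.59 ± 0.13), and CBS, the entry enzyme of transsulfuration, 70.0 and 74.5 against 25.4, 24.9 and 23.9 CPM (1.55 ± 0.12). All of these lay above vehicle in both treated libraries. ASNS, asparagine synthetase, was at 317 and 310.4 CPM against 127, 132 and 128 CPM, a log2 fold change of 1.28 ± 0.18. The serine route PHGDH, PSAT1 and PSPH changed by 1.04 ± 0.19, 0.96 ± 0.17 and 0.41 ± 0.10. The mitochondrial folate enzymes SHMT2, MTHFD2 and MTHFD1L rose by 0.55 ± 0.13, 0.86 ± 0.17 and 0.59 ± 0.09, while the cytosolic counterpart SHMT1 fell by 0.33 on the log2 scale. The SHMT1 call was lost without high-dose replicate 2 or 3. Outside the list, BCAT1, the cytosolic branched-chain aminotransferase, was at 263 and 257 against 115, 115 and 102 CPM (1.23 ± 0.18). Of 12 amino acid transporters 4 rose: SLC6A9, a glycine carrier, by 1.75 ± 0.23, SLC1A4, a neutral amino acid carrier, by 1.31 ± 0.11, SLC38A1 by 0.74 ± 0.22 and SLC43A1 by 0.68 ± 0.18. The count was 2 without high-dose replicate 3, when SLC38A1 and SLC43A1 no longer passed; SLC38A1 also failed without high-dose replicate 2 or vehicle replicate 3. The cystine carrier SLC7A11 did not pass the test (0.22 ± 0.19).

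Among cytosolic aminoacyl-tRNA synthetases, which charge tRNAs, 11 of 20 rose (median 0.37), and RARS1, for arginine, fell by 0.41, a call that failed without treated replicate 2 or 3. SARS1, for serine, was at 167 and 159 CPM against 85.1, 83.7 and 87.8 CPM (0.93 ± 0.17) and GARS1, for glycine, at 448 and 431 against 234, 242 and 227 CPM (0.91 ± 0.12). WARS1, AARS1, CARS1, MARS1 and IARS1 changed by 0.79, 0.75, 0.70, 0.67 and 0.63 on the log2 scale. Those for histidine, lysine and glutamine (HARS1, KARS1, QARS1) had values of -0.12, 0.00 and 0.03 and did not pass. In the 17 mitochondrial synthetases the median was -0.11, and AARS2 and EARS2 were lower (-0.54 and -0.31); neither call held without high-dose replicate 3.

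The composite site of ATF4 and C/EBP proteins, searched as TGATGNAAN on both strands, was present in 3.67% of all promoters and in 1.72% of those of tested genes. It stood in 6 of 16 matched cytosolic synthetase genes (AARS1, CARS1, IARS1, MARS1, NARS1 and TARS1), 5 of them called. Of the stress response regulators 2 of 20 matched had it and of the enzymes 2 of 12 (ASNS and MTHFD1L), all of them called. Transporters had it in 3 of 11, and 1 of these was called. The windows of CHAC1, ASNS and IARS1 are shown because these genes rose and hold the motif before the start, at -210, -68 and -14, in capitals. CHAC1 lies at chr15:40953251-40953470, plus strand, ASNS at chr7:97872409-97872528, minus strand and IARS1 at chr9:92293698-92293777, minus strand; each run ends at the base before the start.
CHAC1: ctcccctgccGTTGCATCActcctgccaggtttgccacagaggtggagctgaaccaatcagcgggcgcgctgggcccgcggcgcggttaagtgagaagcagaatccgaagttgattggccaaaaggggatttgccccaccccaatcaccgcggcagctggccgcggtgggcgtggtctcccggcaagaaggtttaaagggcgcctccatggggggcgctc
ASNS: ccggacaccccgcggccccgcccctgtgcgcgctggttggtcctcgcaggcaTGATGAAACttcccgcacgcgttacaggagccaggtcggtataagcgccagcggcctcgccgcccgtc
IARS1: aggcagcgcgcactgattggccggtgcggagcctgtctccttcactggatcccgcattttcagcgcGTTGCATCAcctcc

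The mitochondrial genome gave opposite signs for its rRNAs and mRNAs. MT-RNR1, the 12S rRNA, was at 21410 and 20680 CPM in the high-dose libraries and 1617, 1447 and 1619 CPM in vehicle, a log2 fold change of 3.75 ± 0.22 (edgeR adjusted p = 8.84e-16). MT-RNR2, the 16S rRNA, was at 39980 and 36700 against 22430, 20390 and 21640 CPM (0.84 ± 0.21), and this call was lost without high-dose replicate 2. The 2 rRNAs together took 6.42% and 6.09% of counts in the treated libraries and between 2.24% and 2.43% in vehicle. All 13 mRNAs had a negative log2 fold change, from -0.39 for MT-ND6 to -1.16 for MT-CO1, and together took 3.14% and 2.95% of counts against 5.55% to 6.19%. Of these, 4 passed the test. MT-CO1, a core subunit of cytochrome c oxidase, was at 6960 and 6555 CPM against 15740, 14500 and 14920 CPM (-1.16 ± 0.26). Its partner subunits MT-CO2 and MT-CO3 changed by -0.98 ± 0.28 and -1.07 ± 0.29, and MT-ND5 of complex I by -0.85 ± 0.27, a call also lost without vehicle replicate 1 or 2. Without high-dose replicate 2 or 3 the lower count was 1, MT-CO1, while DESeq2 called 9. The groups did not overlap in any of the 13 mRNAs, where 5486 of the 18568 tested genes also lay wholly below vehicle. The plot of mitochondrial transcripts shows the opposite shift of MT-RNR1.

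**Figure D2:**
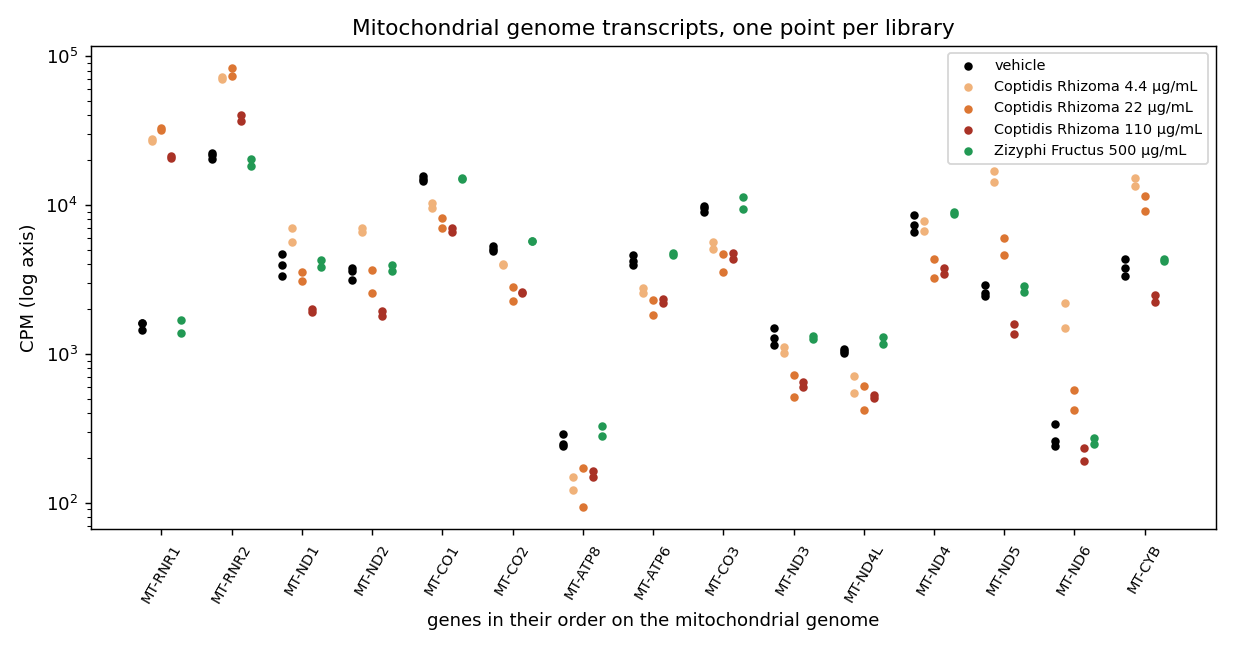
CPM (log axis) of the 15 mitochondrial rRNA and mRNA genes in their order along the genome, a point per library, coloured by group. MT-RNR1 is higher at every dose of Coptidis Rhizoma than in vehicle and Zizyphi Fructus, and MT-ND5 stands highest at 4.4 µg/mL.

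Mitochondrial genes differed in their order across doses. MT-RNR1 was at 33120 and 32090 CPM at 22 µg/mL and at 27660 and 26890 CPM at 4.4 µg/mL, both above the high dose. MT-ND5 was at 1574 and 1352 CPM at the high, 5967 and 4633 at the medium and 16850 and 14190 at the low dose, with 2887, 2552 and 2461 CPM in vehicle. The low-dose libraries lay above vehicle and the high-dose libraries below it. Against the low dose the high dose was lower in 6 of the 15 genes. The log2 differences were -3.41 ± 0.31 for MT-ND5, -3.10 ± 0.48 for MT-ND6, -2.60 ± 0.38 for MT-CYB, -1.86 ± 0.41 for MT-ND2, -1.69 ± 0.39 for MT-ND1 and -0.89 ± 0.23 for MT-RNR2.

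Of 37 nuclear-encoded complex I subunits edgeR called 0, DESeq2 called 0 and 4 were lower at an unadjusted p below 0.05; the list median was -0.18, and 33 of the 37 had a negative value. Of 33 subunits of complexes II to V, SDHA (-0.38 ± 0.11) and ATP5MC3 (-0.53 ± 0.17) were lower. Among 31 genes of mitochondrial transcription and RNA processing, ELAC2, the tRNA 3′ endonuclease (-0.30 ± 0.08), and FASTKD5 (-0.45 ± 0.15) were lower. These 4 calls were lost without high-dose replicate 2 or 3, that of SDHA also without vehicle replicate 2, and those of ATP5MC3 and FASTKD5 when any vehicle library was left out. These counts depend on the fit: with the Coptidis Rhizoma and vehicle libraries only, 20 of 37 complex I subunits, 18 of 33 of complexes II to V and 14 of 31 transcription and processing genes were lower, where 3514 of 16259 genes were lower in all. In that fit 6 of the 31 were higher. Mitochondrial chaperones and proteases went both ways: HSPA9, the matrix Hsp70, was at 832 and 801 CPM against 606, 614 and 601 CPM (0.43 ± 0.07), and the protease LONP1 rose by 0.53 ± 0.13. The chaperonin pair HSPD1 and HSPE1 had log2 fold changes of -0.35 ± 0.09 and -0.73 ± 0.16. The HSPD1 call was lost without high-dose replicate 2 or 3 and that of HSPE1 without replicate 3.

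Sterol genes fell together. Of 25 genes of cholesterol synthesis and uptake 20 were lower, with a median of -0.74. Fewer of them were called when either high-dose replicate was left out. INSIG1, which retains the SREBP complex, was at 13.9 and 14.2 CPM against 35.5, 35.3 and 38.0 CPM (-1.37 ± 0.13, edgeR adjusted p = 1.12e-10). MVK, mevalonate kinase, was at 11.3 and 11.6 against 23.5, 20.2 and 24.4 CPM (-0.99 ± 0.21), and IDI1, an isomerase of isoprenoid synthesis, at 34.5 and 33.5 against 73.6, 72.2 and 71.0 CPM (-1.09 ± 0.11). In these 3 genes both treated libraries lay below every vehicle library. Along the pathway, HMGCS1 changed by -0.81, LSS by -0.81 and DHCR7 by -0.94. SREBF2, which encodes SREBP2, was at 69.5 and 65.9 CPM against 103, 97.7 and 98.8 CPM (-0.56 ± 0.11). TM7SF2 was the only one of the 25 with a positive value (0.26 ± 0.25), and it did not pass. In fatty acid synthesis 6 of 11 were lower, including the desaturases SCD (-0.91 ± 0.20), FADS2 (-0.92 ± 0.08) and FADS1 (-0.47 ± 0.08). FASN (-0.59 ± 0.13), the fatty acid synthase, was called lower too, but not without high-dose replicate 2. The sterol efflux pump ABCG1, a target of the oxysterol receptor LXR, went the other way, from 0.392, 0.488 and 0.461 CPM in vehicle to 1.86 and 1.57 CPM (1.92 ± 0.30). ABCA1, its partner and the other called gene of 6 LXR targets, rose by 0.88 ± 0.28, a call that failed without treated replicate 2 or 3 or vehicle replicate 3. The sterol response element, searched as TCACNCCAC, was present in 1 of 18 matched cholesterol genes, SREBF2 at -133, and in 1.15% of all promoters (1.06% of those of tested genes).

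Cytosolic heat shock proteins fell in 14 of 17 cases, with a median of -0.45. CRYAB, a small heat shock protein, was at 1.03 and 1.29 CPM against 2.11, 2.23 and 2.66 CPM (-1.0 ± 0.29), the largest change, and its call was lost without high-dose replicate 2 or 3 or vehicle replicate 3. HSPA1A, inducible Hsp70, was at 179 and 180.4 CPM against 335, 337 and 361 CPM (-0.94 ± 0.13) and its near-identical copy HSPA1B at 119.5 and 129 against 200.3, 203 and 216 CPM (-0.73 ± 0.08); how reads were divided between the 2 copies is uncertain. HSP90AB1, the constitutive Hsp90, was at 1630 and 1582 against 2226, 2250 and 2270 CPM (-0.49 ± 0.09). CHORDC1, an Hsp90 co-chaperone, had 91.1 and 85.3 against 120.4, 132 and 124 CPM (-0.51 ± 0.11), DNAJA1, an Hsp40, changed by -0.45 ± 0.08 and STIP1, which links Hsp70 to Hsp90, by -0.45 ± 0.09. The groups did not overlap in any of these 6 genes. HSP90AA1 had 1784 and 1738 CPM against 2901, 3044 and 2891 CPM and narrowly missed the threshold (-0.74 ± 0.26, edgeR adjusted p = 0.051). Without high-dose replicate 2 or 3 the count was 8 in each case. The heat shock element, sought on both strands, was found in 3 of 15 matched genes (HSPA8, DNAJA1 and CHORDC1) and in 0.487% of all promoters (0.328% of those of tested genes). CHORDC1 is shown because it holds 3 overlapping matches, which start at -60, -55 and -50 (chr11:90223050-90223149, minus strand, ending at the base before the start).
CHORDC1: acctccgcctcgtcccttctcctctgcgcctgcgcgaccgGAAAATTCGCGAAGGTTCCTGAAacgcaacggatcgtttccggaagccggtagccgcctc

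Genes of the endoplasmic reticulum folding machinery divided: 4 of 19 rose and 7 fell. CALR, a lectin chaperone, was at 227 and 239 CPM against 472, 452 and 461 CPM (-0.99 ± 0.10), and the disulfide isomerases PDIA4 and PDIA6 changed by -0.58 ± 0.07 and -0.46 ± 0.08. XBP1, a transcription factor of the unfolded protein response, rose to 90.4 and 88.1 CPM from 52.0, 56.8 and 61.3 CPM (0.66 ± 0.12). HSPA5 (BiP), the main luminal Hsp70, rose by 0.30 ± 0.07. The largest fall was that of SDF2L1 (-1.13 ± 0.38), a call lost when any of the 5 libraries was left out. Without high-dose replicate 2 the lower count was 3 and without replicate 3 it was 4.

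Genes of the cell division cycle fell. In mitosis 28 of 30 tested genes fell (median -0.64), and the other members, BUB1 and CENPA, had values of -0.47 and -0.44. Fewer mitosis genes were called when either high-dose replicate was left out. KIF20A, a kinesin of cytokinesis, was at 42.1 and 40.2 CPM against 82.3, 77.5 and 75.7 CPM (-0.93 ± 0.18), the largest fall. CCNB2, a mitotic cyclin, was at 74.6 and 74.5 against 119, 120 and 122.8 CPM (-0.69 ± 0.10), PLK1, a kinase of mitotic entry, at 111 and 118 against 203, 196 and 202 CPM (-0.81 ± 0.14), and the spindle motor gene KIF11 at 99.5 and 104 against 172, 166 and 172 CPM (-0.74 ± 0.11). None of these treated libraries overlapped vehicle, yet the changes were below 2-fold. FOXM1, a transcription factor of the G2/M programme, changed by -0.48 ± 0.08 and TOP2A, topoisomerase II alpha, by -0.60 ± 0.10. The CHR element TTTGAA was present in 15 of 24 matched mitosis genes against 15.4% of all promoters (10.1% of those of tested genes), and the CCAAT box in 17 of 24 against 35.7% (36.1%). CCNB2 and KIF11 are shown because both kinds of element stand before their starts, in capitals on either strand (chr15:59105006-59105145, plus strand; chr10:92593030-92593129, plus strand).
CCNB2: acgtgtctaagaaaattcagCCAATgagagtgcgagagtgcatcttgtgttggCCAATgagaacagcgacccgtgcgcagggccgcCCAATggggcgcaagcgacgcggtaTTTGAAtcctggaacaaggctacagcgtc
KIF11: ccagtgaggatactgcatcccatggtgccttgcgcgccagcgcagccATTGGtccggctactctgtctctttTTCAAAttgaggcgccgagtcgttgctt

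In DNA replication 26 of 36 genes fell (median -0.48), 14 without high-dose replicate 2 and 15 without replicate 3. CCNE2, cyclin E2, had the largest fall (-0.94 ± 0.22), a call lost without high-dose replicate 3. FEN1, the flap endonuclease, was at 63.3 and 65.4 CPM against 118, 116 and 126 CPM (-0.90 ± 0.16). ORC1 of the origin recognition complex changed by -0.77 ± 0.15, the helicase loader CDC6 by -0.58 ± 0.08, the sliding clamp PCNA by -0.61 ± 0.09 and POLA2, a primase-polymerase subunit, by -0.51 ± 0.10. MCM6, of the replicative helicase, was at 119 and 114 against 165, 165 and 154 CPM (-0.47 ± 0.09). An E2F-type site, TTTNNCGC on both strands, was found in 20 of 30 matched members, 16 of them called, and in 6.90% of all promoters (10.1% of those of tested genes). MCM6 is shown for its 4 matches, in 2 overlapping pairs, and POLA2 for a single match at -53 (chr2:135876444-135876613, minus strand; chr11:65261862-65261961, plus strand).
MCM6: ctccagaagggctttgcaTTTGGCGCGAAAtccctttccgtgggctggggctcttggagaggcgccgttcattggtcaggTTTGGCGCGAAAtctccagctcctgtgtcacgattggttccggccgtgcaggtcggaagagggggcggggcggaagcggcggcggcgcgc
POLA2: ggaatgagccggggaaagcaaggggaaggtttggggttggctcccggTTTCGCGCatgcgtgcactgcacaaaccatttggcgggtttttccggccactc

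Of 22 nucleotide synthesis genes 9 were lower and 2 higher, with 1 higher, CTPS1, when high-dose replicate 3 was left out. RRM2, a ribonucleotide reductase subunit, was at 179.9 and 175 CPM against 337, 339.5 and 342 CPM (-0.94 ± 0.20), its partner RRM1 changed by -0.54 ± 0.09 and TK1, thymidine kinase, by -0.93 ± 0.15. CTPS1, CTP synthetase, was at 279.8 and 275 against 188, 181 and 174 CPM (0.62 ± 0.08). Replication-coupled chromatin genes were lower in 8 of 12 cases, led by the histone chaperone ASF1B (-0.87 ± 0.10), and in 5 without high-dose replicate 3. Homologous recombination and Fanconi genes were lower in 6 of 18, led by the exonuclease EXO1 (-0.78 ± 0.14); the list held 2 calls without treated replicate 2 and 3 without treated replicate 3. Among 9 CDK inhibitors and D cyclins 1 rose and 3 fell. CCND3, cyclin D3, was at 94.0 and 98.7 CPM against 243, 238 and 256 CPM (-1.35 ± 0.10, edgeR adjusted p = 1.64e-13), whereas CCND1 was at 501 and 473 against 501, 480.5 and 470.1 CPM (0.01 ± 0.10). CDKN2C, the inhibitor p18, fell by 1.25 on the log2 scale, and CDKN1A, the inhibitor p21, rose to 168 and 162 CPM from 111, 107 and 115 CPM (0.57 ± 0.11).

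The plot of gene lists places these groups beside each other. The medians for stress response, serine and one-carbon enzymes and AhR lie to the right of 0, and those for sterol synthesis, mitosis and DNA replication to the left.

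**Figure D3:**
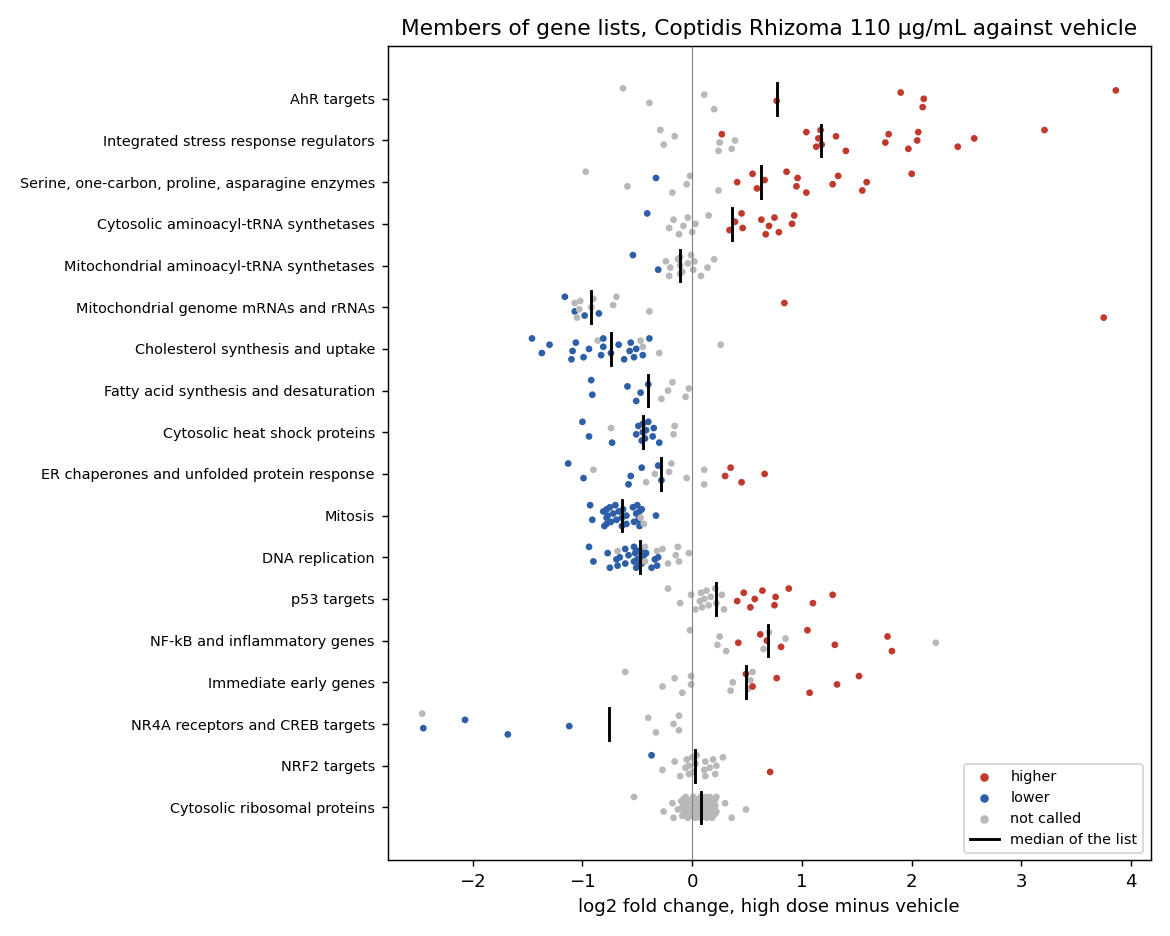
Log2 fold change of the high dose against vehicle (x axis) for each tested member of 18 gene lists (y axis), a point per gene coloured by its edgeR call, with the list median as a black bar. The median was 1.17 for stress response regulators, -0.74 for cholesterol genes and -0.64 for mitosis, beside -0.01 over all genes.

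Targets of p53 rose in 10 of 25 cases with a list median of 0.22. BBC3 (PUMA), a proapoptotic BH3 protein, was at 13.6 and 13.2 CPM against 5.56, 5.61 and 5.33 CPM (1.28 ± 0.17) and GADD45A, a stress sensor, at 32.0 and 33.0 against 13.2, 16.4 and 15.8 CPM (1.10 ± 0.14). TNFRSF10B, a TRAIL death receptor, changed by 0.88 ± 0.16. Other standard targets did not pass, MDM2 at 0.17 ± 0.14 and BAX at 0.09 ± 0.18. Without high-dose replicate 3 the count was 6. Inflammatory genes rose in 8 of 16 cases, some at low levels. CXCL2, a neutrophil chemokine, was at 8.87 and 7.96 CPM against 2.62, 2.44 and 2.25 CPM (1.78 ± 0.22); its counts may be shared with the close paralogs CXCL1 and CXCL3. The chemokine CXCL8 had 3.18 and 3.92 CPM against 0.9, 0.802 and 1.38 CPM (1.82 ± 0.56), a call lost when either high-dose replicate or vehicle replicate 1 or 2 was left out. NFKB2 changed by 0.62 ± 0.14 and BIRC3, an inhibitor of apoptosis, by 0.68 ± 0.16. The count was 5 without high-dose replicate 2 and 5 without replicate 3. Among 17 immediate early genes 6 rose, led by the low-level EGR1 (1.52 ± 0.49); FOSL1, an AP-1 subunit, was at 72.5 and 65.4 CPM against 26.7, 28.5 and 27.6 CPM (1.32 ± 0.32), and JUN changed by 0.77 ± 0.11. FOS did not pass (-0.61 ± 0.37), the EGR1 call was lost without high-dose replicate 2 or 3 or vehicle replicate 1 or 3, and the count was 3 without replicate 3. MAPK feedback genes rose in 5 of 17 (2 and 3 without high-dose replicate 2 and 3), among them the ERK phosphatase DUSP6 (0.85 ± 0.20). Of 11 EGFR family and ligand genes 3 rose; the ligand gene BTC was at 5.49 and 4.90 CPM against 1.88, 1.67 and 1.43 CPM (1.63 ± 0.20) and TGFA changed by 0.87 ± 0.20.

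The orphan nuclear receptors of the NR4A family, early targets of cAMP and calcium signals, fell, and NR4A3 and NR4A1 had the largest falls among called genes with a group mean of at least 5 CPM. NR4A3 was at 1.69 and 1.49 CPM against 8.77, 9.52 and 7.78 CPM (-2.45 ± 0.29, edgeR adjusted p = 4.86e-08) and NR4A1 at 8.09 and 9.88 against 38.2, 35.6 and 39.5 CPM (-2.07 ± 0.24). NR4A2, at 1.49 and 0.823 CPM against 3.17, 3.97 and 3.94 CPM, changed by -1.68 ± 0.37, and this call was lost without high-dose replicate 3. RGS2, a regulator of G protein signalling, fell by 1.12 on the log2 scale. With these, 4 of 10 members of the list were lower; CREM (-0.12 ± 0.10), PER1 (-0.17 ± 0.12) and SIK1 (-0.12 ± 0.36), other CREB targets, did not pass. TGACG, the core of the cAMP response element, stood in 4 of 9 matched promoters, 2 of them of called genes. The share was 25.0% over all promoters (33.6% over those of tested genes). The NR4A3 window is shown for its 4 matches, at -109, -91, -83 and -25 (chr9:99821765-99821884, plus strand, ending at the base before the start).
NR4A3: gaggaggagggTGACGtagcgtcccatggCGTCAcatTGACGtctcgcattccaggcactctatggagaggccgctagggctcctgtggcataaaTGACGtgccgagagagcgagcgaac

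Large rises were also found outside the stress and AhR lists. GREM1, a secreted BMP antagonist (chr15:32717974-32745107 on GRCh38), was at 44.0 and 40.6 CPM against 5.13, 4.60 and 4.46 CPM (3.16 ± 0.31, edgeR adjusted p = 5.62e-10). SLFN5, of the Schlafen family, was at 88.6 and 86.7 against 15.1, 13.8 and 15.0 CPM (2.58 ± 0.19) and AKNA, an AT-hook protein, at 41.3 and 43.4 against 10.1, 8.19 and 8.91 CPM (2.22 ± 0.15). The other large rises were at low levels. BEX2 had 7.63 and 8.58 CPM against 0.9, 1.05 and 0.768 CPM (3.14 ± 0.27), RAB39B, a Rab GTPase, 11.4 and 10.4 against 1.92, 1.43 and 1.84 CPM (2.66 ± 0.30), and UNC5B, a netrin receptor, 6.31 and 4.90 against 0.979, 1.12 and 0.973 CPM (2.44 ± 0.19). EIF3CL, a near-identical copy of the translation factor gene EIF3C, had an unequal pair of treated libraries, 129 and 46.0 CPM against 9.79, 6.34 and 6.04 CPM (3.56 ± 1.22, edgeR adjusted p = 0.0464). Its call is uncertain, since reads can be divided between the copies, and it was lost when any of the 5 libraries was left out. The long noncoding RNA ZFAS1, a snoRNA host, was at 202 and 197 CPM against 67.9, 79.0 and 78.9 CPM (1.41 ± 0.20), and GAS5, another host, at 260.1 and 253 against 119, 123.2 and 136 CPM (1.03 ± 0.11).

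Among the falls, NPTX1, neuronal pentraxin (chr17:80467148-80477843 on GRCh38), was at 90.8 and 93.3 CPM against 382, 363 and 348 CPM (-1.98 ± 0.11, edgeR adjusted p = 1.92e-16). The imprinted genes H19 and PEG10 were at 24.4 and 24.9 against 83.5, 78.1 and 92.6 CPM (-1.78 ± 0.25) and at 137 and 136 against 390, 369 and 349.8 CPM (-1.44 ± 0.19). Several encode surface proteins. TM4SF1, a tetraspanin-like protein, had 177 and 174 CPM against 468, 472 and 499 CPM (-1.45 ± 0.17), its relative TM4SF4 changed by -1.68 ± 0.12, and CD24 by -1.21 ± 0.10. Others with treated levels below 30 CPM were PDE3A (-1.53), SCARA5 (-1.53), UPK3B (-1.66), GPR37 (-1.61), INSL4 (-1.58), SEMA6B (-1.50) and SOX2 (-1.49), each a log2 fold change. NTRK3, a neurotrophin receptor, fell by 1.05. The 3 fibrinogen chains fell together: FGB was at 55.3 and 58.9 CPM against 157, 157 and 165 CPM (-1.49 ± 0.20), FGA changed by -1.22 ± 0.12 and FGG by -1.13 ± 0.16, the 3 called members of 10 tested acute phase and liver-type genes. Among glycolysis and hypoxia genes 4 of 29 rose and 8 fell. HK2, a hexokinase, rose to 5.08 and 5.45 CPM from 1.33, 1.74 and 2.00 CPM (1.64 ± 0.20), and VEGFA, the angiogenic factor, to 73.0 and 68.9 from 42.2, 40.5 and 37.6 CPM (0.82 ± 0.12). The glucose transporter SLC2A3 fell to 10.4 and 13.5 CPM from 32.9, 33.2 and 32.3 CPM (-1.46 ± 0.11), and CA9, a carbonic anhydrase, changed by -1.48 ± 0.32. Without high-dose replicate 2 the lower count of that list was 4. The keratin KRT8 was at 1996 and 1956 CPM against 3592, 3449 and 3442 CPM (-0.82 ± 0.26) and KRT18 changed by -0.75 ± 0.21, while KRT7 and EPCAM did not pass (0.15 and 0.24).

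Other lists had few or no calls in the fit of all libraries. Of 71 cytosolic ribosomal protein genes edgeR called 0 and DESeq2 called 0, and 1 was higher and 1 lower at an unadjusted p below 0.05 (list median 0.08). Of 26 ribosome biogenesis genes edgeR and DESeq2 also called 0, with 2 higher at an unadjusted p below 0.05. These counts too depend on the fit: with the Coptidis Rhizoma and vehicle libraries only, 33 of 71 ribosomal protein genes and 8 of 26 biogenesis genes were higher, where 3643 of 16259 genes were higher in all. Among 21 NRF2 targets, ABCC3, an organic anion pump, rose (0.71 ± 0.11) and TKT was lower (-0.37 ± 0.11), shares near those of all genes in the fit of all libraries. In other settings up to 8 NRF2 targets were called higher and up to 3 lower. The totals over all genes also differ between settings. They reach 3643 higher and 3514 lower of 16259 with the Coptidis Rhizoma and vehicle libraries only. The TKT call was lost without high-dose replicate 2 or 3 or vehicle replicate 1 or 3. Of 27 lysosome and autophagy genes 4 rose and 4 fell. ULK1, a kinase that starts autophagy, changed by 0.58 ± 0.13; without high-dose replicate 3 both counts of that list were 1.

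Smaller lists are given by count, to be read against the 6.41% of all tested genes called higher and the 6.14% called lower. Of 13 interferon-stimulated genes 2 rose and OAS1 fell (-0.85 ± 0.13). In 15 noncoding RNAs and snoRNA hosts 6 rose, and 3 when either high-dose replicate was left out; MEG3 changed by 1.19 ± 0.15. Circadian clock genes rose in 4 of 18, led by NFIL3 (0.84 ± 0.13), and in 2 when either high-dose replicate was left out. Of 8 genes of plasminogen activation 3 rose; 1 was called when either high-dose replicate was left out. Tubulins were lower in 5 of 11, led by TUBB4B (-0.81 ± 0.16), and in 1 when either high-dose replicate was left out, while TUBB2B rose (1.04 ± 0.15); its reads may be shared with TUBB2A. Of 9 YAP targets 2 rose and CRIM1 fell (-0.56 ± 0.17). Among 5 metallothionein and zinc export genes MT1X fell (-0.56 ± 0.19). FOXO targets rose in 1 of 9 and fell in 2, led by PDK4 (-0.93 ± 0.17). Polyamine genes rose in 1 of 9, the oxidase SMOX (0.87 ± 0.23), and fell in 2. Drug transporters rose in 2 of 10, with ABCC3 again the larger. BMP and activin genes rose in 2 of 18 and fell in 2, among them the activin antagonist FST (-0.80 ± 0.15). Of 16 mesenchymal genes 2 rose, led by the low-level TWIST1 (1.15 ± 0.30), and 2 fell, led by SNAI1 (-0.92 ± 0.17). Of 14 IGF genes 2 rose and 4 fell, H19 the most. The call of MT1X was lost when any of the 5 libraries was left out, with RLE scaling and without mitochondrial genes, and that of CRIM1 without either high-dose library or vehicle replicate 1 or 2. Those of SMOX and TWIST1 were lost without high-dose replicate 2. Leaving out either high-dose library gave 1 higher and 1 lower BMP gene, 1 higher and 2 lower IGF genes, and 1 lower polyamine and 1 lower mesenchymal gene. Higher calls were fewer without high-dose replicate 2 among interferon, YAP and drug transporter genes. Those among mesenchymal genes were lost without high-dose replicate 2 and were fewer without replicate 3.

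The contrast with Zizyphi Fructus at its high dose, within code 11, compares 2 extracts without the vehicle libraries; it shares the high-dose libraries with the comparison above. In it 761 genes were higher (4.10% of those tested) and 747 lower (4.02%) in Coptidis Rhizoma, and the total of 1508 was 726 and 806 without Coptidis Rhizoma replicate 2 and 3, and 791 and 776 without Zizyphi Fructus replicate 2 and 3. CYP1A1 was at 1.15 and 1.42 CPM in the Zizyphi Fructus libraries and higher by 3.09 ± 0.30 in Coptidis Rhizoma. NIBAN1 was at 12.2 and 9.45 CPM there (difference 3.25 ± 0.25), MT-RNR1 at 1384 and 1695 CPM (3.77 ± 0.26) and NR4A3 at 6.41 and 7.95 CPM (-2.18 ± 0.31). In NIBAN1 and MT-RNR1 the Zizyphi Fructus libraries were near vehicle, and in CYP1A1 they were above all vehicle libraries. By list, 15 of 23 stress response regulators, 13 of 20 enzymes and 11 of 20 cytosolic synthetases were higher. Lower were 18 of 25 cholesterol genes, 27 of 30 mitosis genes, 24 of 36 replication genes and 12 of 17 heat shock genes.

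The contrast of 110 with 4.4 µg/mL asked which genes differ between doses of the extract; it too shares the high-dose libraries. There 173 genes were higher (0.932% of those tested) and 256 lower (1.38%) at the high dose. The count of 429 in all became 111 when replicate 2 of the high dose was left out and 150 when replicate 3 was. It became 128 and 132 when replicates 2 and 3 of the low dose were left out in turn. CYP1A1 was at 2.49 and 3.37 CPM at 4.4, 6.85 and 7.12 at 22 and 10.6 and 11.6 CPM at 110 µg/mL, with a high to low difference of 1.92 ± 0.28 (edgeR adjusted p = 2.47e-05). NIBAN1 was at 30.3 and 27.8, 54.8 and 51.5 and 104 and 101 CPM in the same order (1.82 ± 0.23). In both genes the doses did not overlap. ASNS was at 243 and 238, 289 and 278 and 317 and 310.4 CPM, and its difference between high and low did not pass (0.38 ± 0.20). NR4A3 was at 4.22 and 4.64, 2.52 and 2.98 and 1.69 and 1.49 CPM (-1.48 ± 0.32), and CCNB2 at 105 and 109, 97.2 and 97.9 and 74.6 and 74.5 CPM (-0.52 ± 0.11). In each of these 5 genes the 22 µg/mL libraries lay between those of 4.4 and 110 µg/mL, as the plot by dose shows. Of the AhR genes 4 of 9 were higher at the high than at the low dose, of the stress response regulators 5 of 23 and of the enzymes 2 of 20. Of the cholesterol genes 10 of 25 were lower, of the mitosis genes 18 of 30 and of the replication genes 8 of 36.

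**Figure D4:**
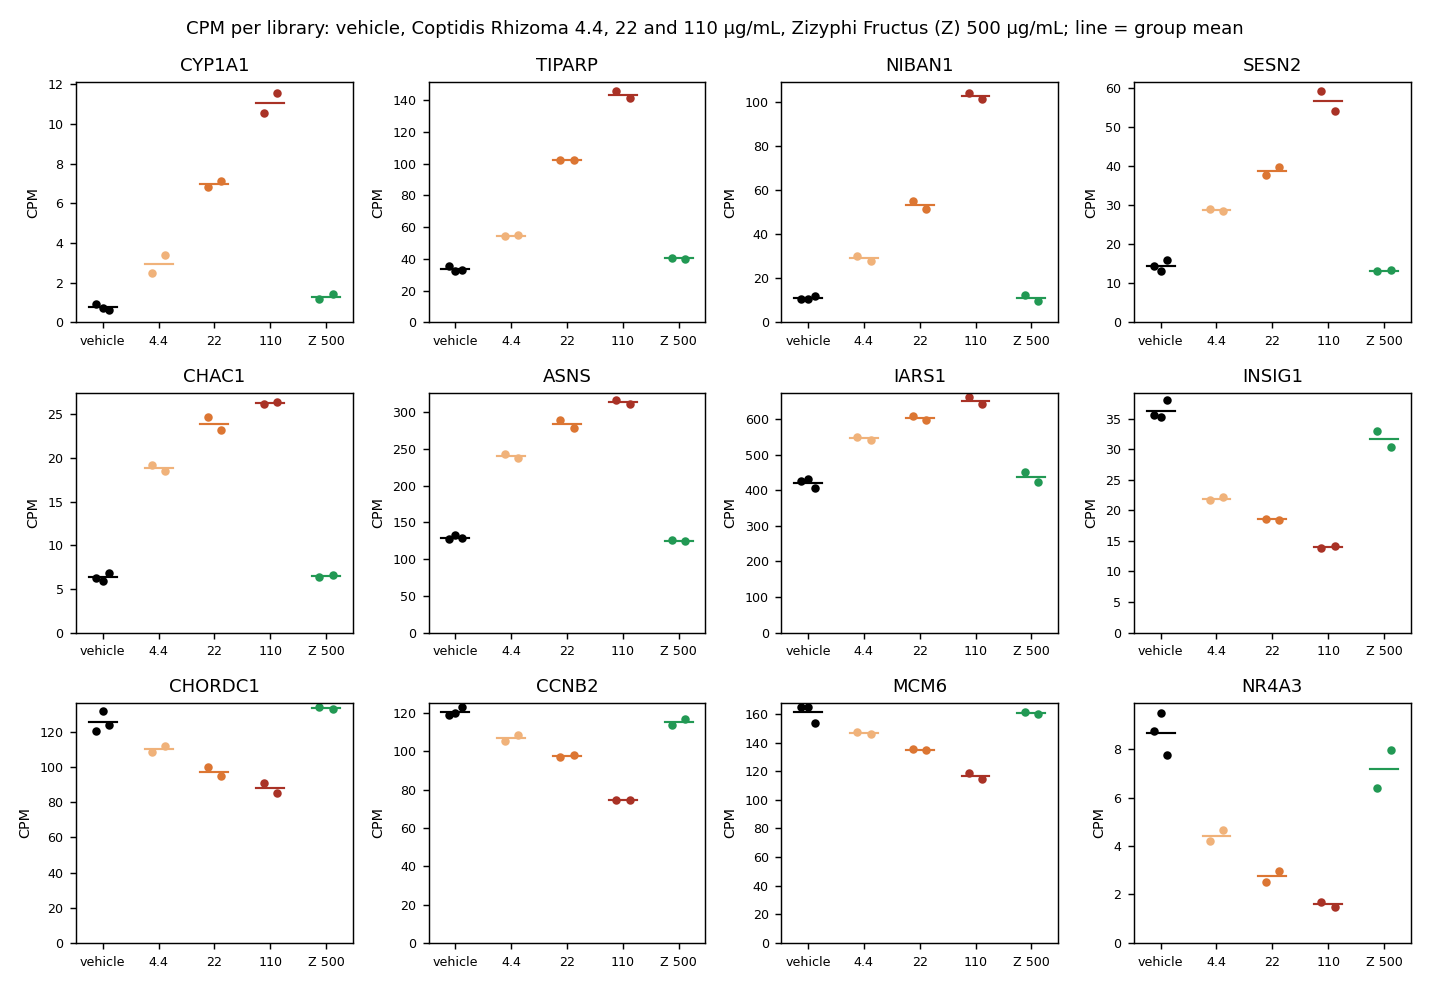
CPM per library (y axis, from 0) of 12 genes in vehicle, Coptidis Rhizoma at 4.4, 22 and 110 µg/mL and Zizyphi Fructus (Z) at 500 µg/mL (x axis), with a line at each group mean. CYP1A1 and NIBAN1 stand highest at 110 µg/mL, ASNS is already raised at 4.4 µg/mL, and INSIG1, CCNB2 and NR4A3 are lowest at 110 µg/mL.

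Some library measures moved with treatment, and their part in the results was not tested. The 20 most abundant genes took 14.6% and 14.2% of counts at the high dose and 12.7% to 13.6% in vehicle. Antisense genes took 3137 and 3132 CPM at the high dose against 2761 to 2805 CPM in vehicle. Cimicifugae Rhizoma medium replicate 2, left out in an alternative setting for its high antisense share, had 3149 CPM. The 15 lung epithelial markers summed to 6085 and 6131 CPM against 8283 to 8624 CPM in vehicle. Among them only KRT8 and KRT18, abundant members of this sum, were called lower (-0.82 and -0.75). KRT7, KRT19, EPCAM, MUC1, CLDN4, CEACAM6 and NAPSA had positive log2 fold changes, and CDH1, FOXA1 and FOXA2 negative ones, with no call. Markers of leukocytes summed to 2.39 and 2.86 CPM at the high dose and 2.65 to 3.43 CPM in vehicle, with PTPRC and CD3E at 0 in all 5 libraries. Endothelial, erythroid, hepatocyte and muscle markers were lower still, and fibroblast markers summed to 26.4 and 28.3 CPM against 32.5 to 33.9 CPM.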

How the data were processed

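RNA of A549 cells was sequenced in bulk. The authors deposited expected counts per gene, a table of 60675 Ensembl genes on hg38; RSEM 1.3.3, STAR 2.7.3a, FastQC 0.11.9 and Trim Galore 0.6.5 are named, with no order, per the submitters' processing notes. No source used here gives the release of the annotation. Of its columns 59 belong to these libraries and 210 columns of other samples were not used. Of the values 84.4% were whole and all were rounded to whole counts. Gene positions come from GENCODE 29, which holds 94% of the IDs, and promoter sequences from RefSeq (GRCh38.p14).

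Genes were filtered with edgeR 4.0.16 (filterByExpr, minimum count 10, minimum total 15), which left 18568, scaled by TMM and fitted with the quasi-likelihood test (R 4.3.3) as 25 group means over the 59 libraries, with residual degrees of freedom of 34. Adjustment was by Benjamini-Hochberg over all tested genes, and a gene was called at an adjusted p below 0.05. Fold changes are high dose minus comparison group on the log2 scale with a standard error from the F statistic. CPM values were computed from the counts. The procedure was tested on simulated counts. Alternatives were DESeq2 1.42.0, a test against a 1.5-fold change, RLE scaling, other filters, smaller fits, a replicate block, no mitochondrial genes and each library left out. 

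The members and the 47 gene lists were chosen with earlier results of these data known. Named were the 15 largest called rises and falls with separate groups and at least 5 CPM in the higher group, the 10 each way at 100 CPM, and called members of the lists; a few of these genes are not reported here. BCAT1 and others of these belong to no list. Lists are described by counts and medians. Total counts per library were 19320259 to 27975489 in the high-dose and vehicle libraries; 2 and 3 libraries limit the precision. High-dose replicates 2 and 3 differed by more than sampling noise (chi-square per degree of freedom 2.192), as did the vehicle libraries, and each was counted as a sample.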

Additional observations from a re-analysis of the deposited data

How the results depend on the processing

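The count of 2332 genes called against vehicle was 2344 with RLE scaling, 1749 with no filter, 2393 at a minimum count of 50, 2338 without mitochondrial genes and 2535 with DESeq2. It was 223 in the test against a 1.5-fold change, 7157 in the fit of Coptidis Rhizoma and vehicle libraries, 6912 in the fit of both groups alone and 5116 without 4 libraries of high antisense share. Leaving out a library gave 1163 to 1767. Against Zizyphi Fructus the count of 1508 was 139 in the test against a 1.5-fold change, 5448 in the fit of both extracts, 5156 in that of both groups and 3755 without the 4 libraries; leaving out a library gave 726 to 806. Against the low dose the count of 429 was 19, 3670, 4521 and 1659 in the corresponding settings and 285 with no filter; leaving out a library gave 111 to 150. Where a smaller number of libraries is fitted, the cause of the change was not tested. No scaling moved the median of all genes by more than 0.1 (log2).

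Replicate numbers did not pair the samples: deviations of same-numbered libraries correlated between -0.023 and 0.024. With the replicate block the counts were 2483 against vehicle, 1603 against Zizyphi Fructus and 458 against the low dose. Of 42 genes named by size of change, 40 kept their call in every alternative other than the test against a 1.5-fold change; EIF3CL and MT-CO3 did not. Of 310 called list members 167 did so, and none of these 310 changed sign in the 15 alternatives.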
